A study of Mus musculus with 12 samples.

Results

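The growth hormone and insulin-like growth factor (IGF) axis was followed through 10 genes chosen by name, Ghr, Igf1, Igf1r, Insr, Igfals, Igfbp1, Igfbp2, Igfbp3, Igfbp4 and Socs2, out of 53715 genes listed in the count table. All 10 were among the 17779 genes tested. RNA was sequenced from C57BL/6JOlaHsd mice in 3 groups of 4 biological replicates. Hepatoblasts were Dlk1+ liver progenitors taken at E14.5 by magnetic sorting from the pooled livers of several embryos and lysed directly. Diff. hepatocytes were such E14.5 hepatoblasts kept for 4 days in culture protocol 1, a medium with serum, insulin, transferrin, selenium and dexamethasone on fibronectin under Matrigel. Mature hepatocytes were perfused from the livers of male mice 8 to 12 weeks old and lysed directly, so this group differs from the embryonic cells in age, sex selection and isolation, which cannot be told apart. The comparisons ask how far the axis of the adult liver is reached by cultured cells and by progenitors.

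In the adult, pituitary growth hormone binds its receptor Ghr on hepatocytes and signals through Jak2 and Stat5 to induce Igf1, Igfals and Socs2. Liver-derived IGF1 circulates bound to Igfbp3 and the acid-labile subunit encoded by Igfals, while smaller binding proteins such as Igfbp1, Igfbp2 and Igfbp4 carry the remainder and limit its access to the receptor Igf1r. Before birth, growth depends more on Igf2 and less on growth hormone. Igfbp1 is known as a gene that insulin represses, through FoxO factors, and that glucocorticoids induce. Insr is the receptor by which hepatocytes sense insulin, whereas Igf1r is scarce in adult hepatocytes.

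Promoter sequences are shown for the 2 genes in which a motif of these signals was found. RefSeq (GRCm38.p6) held 12 promoters of 8 of the 10 genes, each with 250 bases before and 50 after the start, and the bases before the first annotated exon are printed 5′ to 3′. Capitals mark the motif. CAAAACA, an insulin response element letter sequence recognised by FoxO factors, was found on either strand in 6.28% of 32851 promoters and, among these 8 genes, only in that of Igfbp1. TTCNNNGAA, the core of a Stat binding site, was found in 8.3% of promoters and, among these 8 genes, only in Igfals, in 2 of its 3 promoters. None of the 12 promoters held the HNF1 or the glucocorticoid response element in the strict palindromic form searched, which 0.00913% of all promoters held for each, and the marked motifs do not overlap one another. The Igfbp1 stretch, chr11:7197537-7197781 on the plus strand, lies upstream of the gene. Both Igfals stretches, chr17:24877594-24877655 and chr17:24877981-24878214 on the plus strand, lie inside an intron of longer noncoding Igfals transcripts and before exons of shorter ones.
Igfbp1: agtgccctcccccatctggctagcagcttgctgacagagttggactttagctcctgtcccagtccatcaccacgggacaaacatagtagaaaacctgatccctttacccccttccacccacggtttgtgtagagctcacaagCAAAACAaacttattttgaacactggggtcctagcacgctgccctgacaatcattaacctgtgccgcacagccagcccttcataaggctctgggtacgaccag
Igfals, first promoter: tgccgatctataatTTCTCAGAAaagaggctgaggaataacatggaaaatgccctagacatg
Igfals, second promoter: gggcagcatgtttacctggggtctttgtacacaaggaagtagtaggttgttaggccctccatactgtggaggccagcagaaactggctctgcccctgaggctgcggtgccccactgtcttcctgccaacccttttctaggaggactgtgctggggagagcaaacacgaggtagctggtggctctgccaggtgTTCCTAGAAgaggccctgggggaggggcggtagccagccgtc
A match of letters is a description of the sequence and not a measured binding site.

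The libraries held 19581551 to 25216977 gene counts each. Levels are given as CPM, counts as a rate of a library size scaled by TMM, a method that sets the bulk of genes equal, and differences as log2 fold changes with their standard error (SE). A call, higher or lower, required that edgeR's quasi-likelihood test gave an adjusted p under 0.01 and that the level changed more than 2-fold (log2 over 1). Fetal liver genes (Afp, Dlk1, Gpc3, H19) summed to 41341 to 69243 CPM in the progenitors and 37669 to 43912 CPM after culture. In the adult they summed to 64.9 to 108 CPM. Most of the sum in both embryonic groups was Afp and H19. In culture 3 of these 4 were called lower than in hepatoblasts, beside 14% of all genes, and H19 was not called (log2 0.58). The 3 were Dlk1 (log2 -5.23, edgeR adjusted p = 1.43e-09), Gpc3 (log2 -1.75, edgeR adjusted p = 1.82e-06) and Afp (log2 -1.08, edgeR adjusted p = 0.000618). Dlk1, the sorting marker, went from 2461 to 4199 CPM in hepatoblasts to 88.3 to 99.1 CPM in culture. A decrease of Dlk1 in culture is also reported in the paper. Of 5 hepatocyte markers, 5 were called higher in mature hepatocytes than in hepatoblasts, beside 20.1% of all genes. Marker calls used TMM and were not checked under other scalings. Only 2 of the 5 were called higher in culture than in hepatoblasts, beside 14.9% of all genes. The 2 were Serpina1a (log2 1.59, edgeR adjusted p = 5.7e-07) and Apoa1 (log2 1.05, edgeR adjusted p = 0.000176). Alb (log2 0.09), Ttr (log2 -0.88) and Hnf4a (log2 0.60) were not called. The hepatocyte marker sum of the culture, 48545 to 56281 CPM, overlapped that of the hepatoblasts, 33237 to 56234 CPM. Most of either sum was Alb. Hepatoblasts replicate 1 and Diff. hepatocytes replicate 1 stood apart from their groups, since all 9 macrophage markers were highest there, with sums of 338 against 83.3 to 106 CPM and of 162 against 23.2 to 71.4 CPM, and the erythroid sum was 1187 CPM in hepatoblasts replicate 1 against 137 to 233 CPM in the other hepatoblasts. In Diff. hepatocytes replicate 1 all 5 bile duct markers were also the highest of the group (sum 213 against 70 to 93.5 CPM), as were 7 of 9 mesenchymal and stellate cell markers (sum 2967 against 1280 to 2042 CPM). Without both libraries the number of the 10 genes called was the same in each comparison. In bulk RNA, fewer cells of a type and less RNA per cell cannot be told apart.

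Of the 10 genes, 3 were higher, 3 were lower and 4 were not called in Diff. hepatocytes against hepatoblasts, where 14.9% of all tested genes were called higher and 14% lower. In mature hepatocytes against hepatoblasts 6 were higher, 2 were lower and 2 were not called, beside 20.1% of all genes called higher and 24.7% lower. That balance of all genes depends on the scaling, with 3580 higher and 4391 lower under TMM, 2007 and 7920 under library totals and 2282 and 7019 under totals without the 50 most abundant genes, while the 10 genes stayed at 6 higher and 2 lower. Against mature hepatocytes, Diff. hepatocytes had 3 genes higher, 6 lower and 1 not called, beside 20.2% and 15.6% of all genes. The median log2 fold changes of the 10 genes were 0.23, 2.62 and -1.82 in this order, and those of all tested genes were -0.01, -0.15 and 0.09. The comparisons share their libraries in pairs, so their values are set side by side and not read as independent. Under library totals without TMM the median of all genes moved to -0.34, -1 and 0.62. Where a call or direction of the 10 genes or of another called gene named below depends on that choice, it is stated. Pappa2, the genes of the further lists that were not called and the cell type markers were not checked singly in this way.

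**Figure D1:**
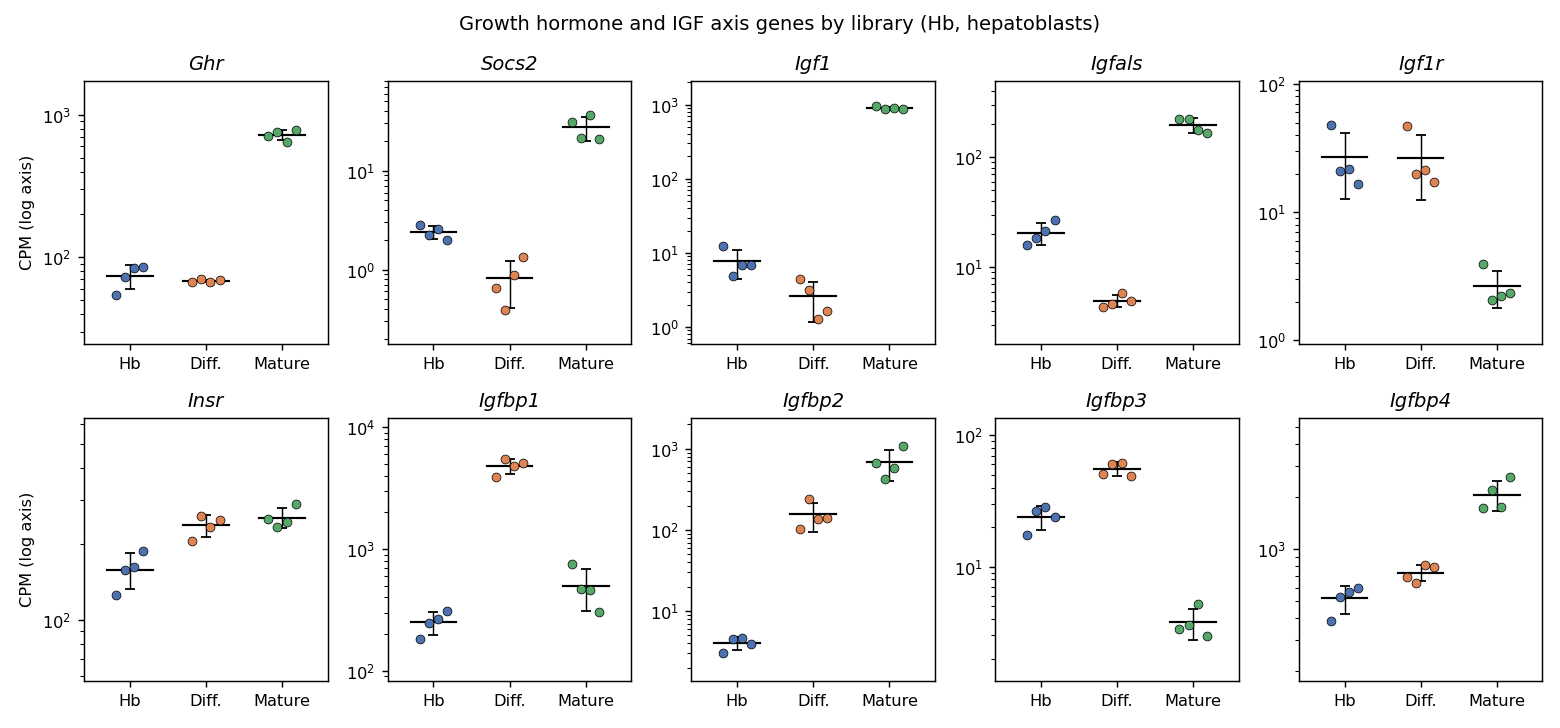
Level of each of the 10 genes in the 12 libraries, in CPM on a log axis (Hb, hepatoblasts; Diff., Diff. hepatocytes; Mature, mature hepatocytes). Points are libraries in replicate order, horizontal bars are means and whiskers are SD (n = 4). Ghr, Igf1, Igfals and Socs2 sit far higher in the 4 mature libraries than in the other 8, whereas Igfbp1 is highest in Diff. hepatocytes.

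Ghr, the growth hormone receptor (ENSMUSG00000055737, chromosome 15 from 3317760 to 3583492, minus strand of GRCm38), was not called between cultured cells and progenitors, and was about 10 times lower in both than in adult cells. Its level was 54.0, 72.5, 84.0 and 84.9 CPM in hepatoblasts replicates 1 to 4. It was 67.4, 70, 67.2 and 68.8 CPM in Diff. hepatocytes, inside the range of the hepatoblasts. The mature libraries lay at 710, 759, 644 and 785 CPM, all above every embryonic library. The culture differed from hepatoblasts by a log2 fold change of -0.11 (SE 0.13, 95% interval -0.39 to 0.17, edgeR adjusted p = 0.473), an interval that leaves out a change to the calling threshold of 1 in either direction. The rise in mature hepatocytes was 9.81-fold (log2 3.29, SE 0.14, edgeR adjusted p = 2.17e-10). Diff. hepatocytes were 10.6-fold lower than mature hepatocytes (log2 -3.41, SE 0.14, edgeR adjusted p = 3.37e-10).

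Socs2, a feedback inhibitor of the growth hormone receptor that Stat5 induces (ENSMUSG00000020027, chromosome 10 from 95385362 to 95417180, minus strand), was called lower in culture, where Ghr was not called. Hepatoblasts had 2.81, 2.24, 2.59 and 1.99 CPM. In Diff. hepatocytes it was 0.649, 0.387, 0.888 and 1.33 CPM, from 15, 9, 20 and 27 counts, with no overlap between the groups. The mature libraries had 30.9, 21.1, 36.5 and 20.9 CPM, above all others. The decrease in Diff. hepatocytes was 2.98-fold (log2 -1.57, SE 0.31, edgeR adjusted p = 0.000659), and this call was lost in a test against the fold threshold itself (edgeR's glmTreat, adjusted p = 0.0536). Mature hepatocytes were 11.3-fold above hepatoblasts (log2 3.5, SE 0.27, edgeR adjusted p = 7.6e-08) and 33.8-fold above Diff. hepatocytes (log2 -5.08 for Diff. against mature, SE 0.31, edgeR adjusted p = 1.4e-08). Of the 75-base sequences of Socs2 transcripts, 3.15% also occur in Adarb1 or Gm9847, so a small part of its counts is uncertain.

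Igf1, the circulating growth factor (ENSMUSG00000020053, chromosome 10 from 87858265 to 87937042, plus strand), separated adult from embryonic cells more widely than the other 9 genes when Diff. and mature hepatocytes were compared. Hepatoblasts had 12.4, 4.84, 6.86 and 6.76 CPM, with replicate 1 the highest. Diff. hepatocytes had 4.45, 3.19, 1.29 and 1.63 CPM, again with replicate 1 the highest, and all 4 lay below the lowest hepatoblast library. The mature libraries had 945, 869, 911 and 862 CPM, a narrow range far above both embryonic groups. The culture was 2.89-fold below hepatoblasts (log2 -1.53, SE 0.34, edgeR adjusted p = 0.00171), a call lost under glmTreat (adjusted p = 0.089). Mature hepatocytes were 116-fold above hepatoblasts (log2 6.86, SE 0.37, edgeR adjusted p = 2.32e-09) and 337-fold above Diff. hepatocytes (log2 -8.40 for Diff. against mature, SE 0.41, edgeR adjusted p = 1.65e-09). Igf1 was 2.01 times the mean of the other replicates in hepatoblasts replicate 1 and 2.19 times in Diff. hepatocytes replicate 1, the libraries with the highest macrophage markers, and their part in the Igf1 level was not tested. Without both libraries the log2 fold changes were -1.57, 7.19 and -8.76, with the same calls. The opposite-strand gene Igf1os had 55 to 84 counts in mature hepatocytes, beside 13539 to 15617 counts of Igf1.

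Igfals, the acid-labile subunit that stabilises circulating IGF complexes (ENSMUSG00000046070, chromosome 17 from 24865997 to 24882010, plus strand), moved in the same directions as Igf1. Its levels were 15.9, 18.3, 21.3 and 27.0 CPM in hepatoblasts. They were 4.41, 4.69, 5.82 and 4.93 CPM in Diff. hepatocytes, all under the hepatoblast range. Mature hepatocytes had 221, 224, 178 and 166 CPM. The decrease in culture was 4.15-fold (log2 -2.05, SE 0.17, edgeR adjusted p = 3.45e-07) and held under each alternative tried, with log2 values from -2.37 to -1.90. Mature hepatocytes exceeded hepatoblasts 9.57-fold (log2 3.26, SE 0.17, edgeR adjusted p = 1.32e-09). Cultured cells were 39.7-fold below mature cells (log2 -5.31, SE 0.19, edgeR adjusted p = 8.31e-11). The 3 growth hormone targets Igf1, Igfals and Socs2 were thus each called lower in the culture than in the progenitors it was started from, and Ghr was not.

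**Figure D2:**
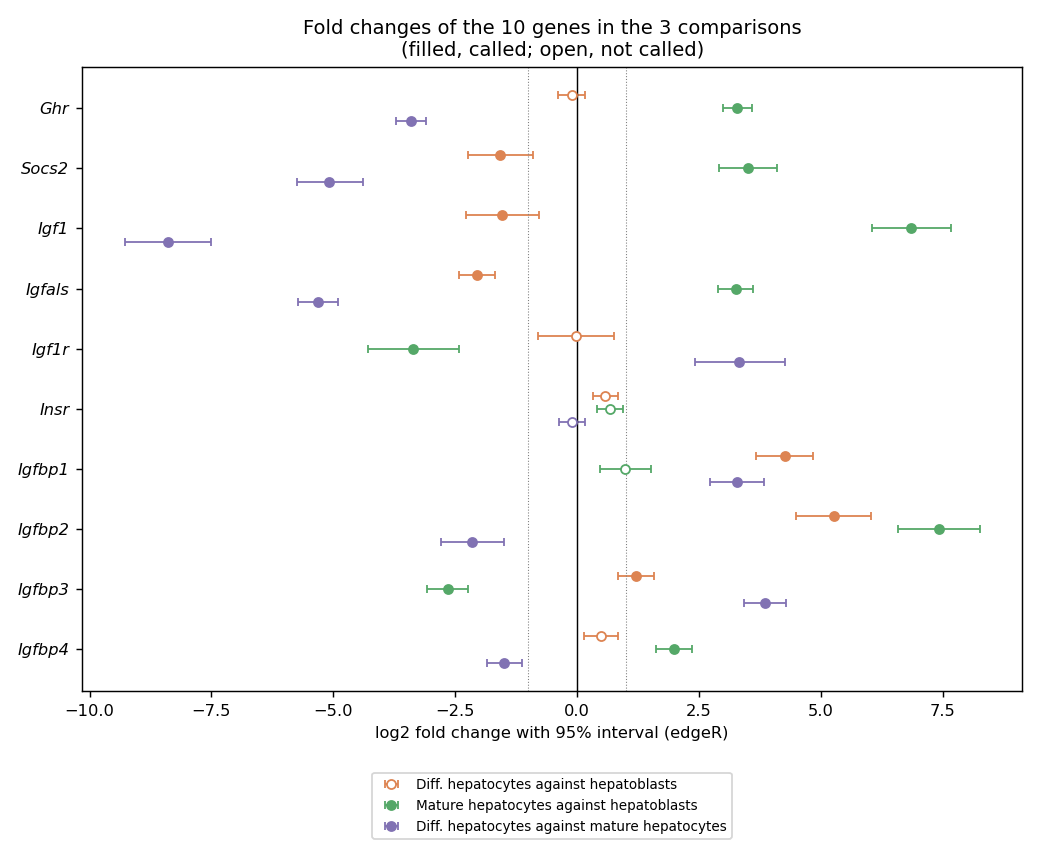
Log2 fold change of the 10 genes in the 3 comparisons, with 95% intervals from edgeR, filled where called and open where not, and dotted lines at -1 and 1. Socs2, Igf1 and Igfals lie left of 0 in Diff. hepatocytes against hepatoblasts and right of 0 in mature hepatocytes against hepatoblasts, while Igfbp1 rises only in culture past the threshold (4.27 against 0.99).

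The binding proteins came next. In culture Igfbp1 and Igfbp2 rose strongly, Igfbp3 rose slightly and Igfbp4 was not called. Igfbp1, a small binding protein secreted by hepatocytes (ENSMUSG00000020429, chromosome 11 from 7197782 to 7202546, plus strand; its promoter is printed above), had 181, 245, 268 and 308 CPM in hepatoblasts. Diff. hepatocytes had 3904, 5452, 4838 and 5076 CPM, so that the gene alone took 0.422% to 0.575% of all counts there. Mature hepatocytes had 754, 468, 464 and 302 CPM, and the lowest of these lay inside the hepatoblast range. The increase in culture was 19.2-fold over hepatoblasts (log2 4.27, SE 0.27, edgeR adjusted p = 3.17e-08) and 9.69-fold over mature hepatocytes (log2 3.28, SE 0.26, edgeR adjusted p = 1.48e-07). Mature hepatocytes against hepatoblasts gave a log2 difference of 0.99 (SE 0.24, 95% interval 0.47 to 1.51, edgeR adjusted p = 0.00222), which was not called because it missed the fold threshold. That value ran from 0.71 to 1.16 when single libraries were left out and was called without hepatoblasts replicate 3 (1.01) or 4 (1.10) or mature replicate 2 (1.01), 3 (1.01) or 4 (1.16), and it was 0.15 under library totals.

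Igfbp2, a binding protein that adult rodent liver secretes in fasting and low insulin (ENSMUSG00000039323, chromosome 1 from 72824503 to 72852474, plus strand), rose in both hepatocyte groups, and more in the adult. Hepatoblasts had only 3.03, 4.51, 4.63 and 3.91 CPM. Diff. hepatocytes had 102, 244, 137 and 139 CPM, every one above all hepatoblasts. Mature hepatocytes had 664, 424, 577 and 1099 CPM, above every cultured library but with the widest spread of the 3 groups. The culture was 38.6-fold above hepatoblasts (log2 5.27, SE 0.36, edgeR adjusted p = 5.1e-08). The mature cells were 172-fold above hepatoblasts (log2 7.42, SE 0.39, edgeR adjusted p = 1.54e-09), and the culture stayed 4.45-fold below them (log2 -2.15, SE 0.30, edgeR adjusted p = 3.12e-05). Its neighbour Igfbp5, 5.46 kb away in the opposite orientation, had 9.42, 8.36, 11.3 and 8.12 CPM in the progenitors and only 0.173, 0.474, 0.178 and 0.345 CPM in culture. This was a decrease (log2 -4.97, SE 0.54, edgeR adjusted p = 4.14e-06) beside the increase of Igfbp2.

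Igfbp3, the binding protein of the large circulating complex, made in adult liver chiefly by cells other than hepatocytes (ENSMUSG00000020427, chromosome 11 from 7206086 to 7213923, minus strand), lies 3.54 kb from Igfbp1 in a tail-to-tail arrangement. It had 17.3, 26.5, 28.5 and 23.7 CPM in hepatoblasts. The cultured cells had 50.5, 60.7, 61.7 and 48.9 CPM, with no overlap. Mature hepatocytes had 3.36, 3.59, 5.25 and 2.98 CPM, below all others. The culture was 2.31-fold above hepatoblasts (log2 1.21, SE 0.17, edgeR adjusted p = 4.03e-05), but this passed neither glmTreat (adjusted p = 0.145) nor the fold threshold under library totals (log2 0.90). Mature hepatocytes were 6.28-fold below hepatoblasts (log2 -2.65, SE 0.19, edgeR adjusted p = 3.83e-08). Cultured cells were also above mature hepatocytes (log2 3.86, SE 0.20, edgeR adjusted p = 2.73e-09). The sum of 9 mesenchymal and stellate cell markers was also low in mature hepatocytes, at 66.8 to 97.8 CPM against 1249 to 2257 CPM in the progenitors and 1280 to 2967 CPM in culture, with no defining marker at 0. Of these 9 markers 7 were called lower in mature hepatocytes than in hepatoblasts, beside 24.7% of all genes. Lrat was higher (log2 1.46, edgeR adjusted p = 0.00032) and Dcn was not called (log2 -0.08, edgeR adjusted p = 0.662). The fetal liver gene sum was also lowest in mature hepatocytes, at 64.9 to 108 CPM. It was 41341 to 69243 CPM in the progenitors and 37669 to 43912 CPM in culture. Endothelial markers summed to 181 to 346 CPM in mature hepatocytes, 104 to 203 CPM in the progenitors and 53.4 to 107 CPM in culture. Macrophage markers summed to 137 to 268, 83.3 to 338 and 23.2 to 162 CPM in the same order. The part of any of these cells in the Igfbp3 difference was not tested. The neighbours Igfbp1 and Igfbp3 were both higher in culture than in either fresh group, but their changes between hepatoblasts and mature hepatocytes had opposite signs under TMM (0.99, not called, and -2.65).

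Igfbp4, an inhibitory binding protein (ENSMUSG00000017493, chromosome 11 from 99041244 to 99054392, plus strand), was abundant throughout. Hepatoblasts had 385, 527, 570 and 599 CPM. Diff. hepatocytes had 695, 639, 807 and 788 CPM, all above the hepatoblasts, but the difference was not called (log2 0.49, SE 0.16, 95% interval 0.14 to 0.85, edgeR adjusted p = 0.0194). Mature hepatocytes had 1721, 2173, 1738 and 2575 CPM. They were 3.94-fold above hepatoblasts (log2 1.98, SE 0.17, edgeR adjusted p = 1.86e-07). The culture was 2.8-fold below mature cells (log2 -1.49, SE 0.17, edgeR adjusted p = 4.12e-06), a call lost under library totals (-0.95) and under totals without the 50 most abundant genes (-0.92).

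Per kilobase of exon, which allows genes to be compared, the summed level of Igfbp1 to Igfbp4 was 292 ± 57.5 CPM per kb in the progenitors, 3426 ± 460 in culture and 1166 ± 176 in the adult (SD, n = 4). The make-up of that sum differed between all 3 groups. Igfbp1 held 56.2% ± 1.36 of it in the progenitors, 92.2% ± 0.33 in culture and 28.5% ± 10.5 in the adult (SD, n = 4). Within the mature group its share was 39.7%, 29.8%, 30.1% and 14.4% in replicates 1 to 4, so this group varied far more than the others. Igfbp2 took 0.753% ± 0.1 in the progenitors, 2.41% ± 0.671 in culture and 31.3% ± 8.73 in the adult (SD, n = 4). Igfbp4 held 40.5% ± 0.943, 4.91% ± 0.832 and 40.1% ± 6.9 in this order (SD, n = 4), and Igfbp3 held 2.64% ± 0.339, 0.521% ± 0.0678 and 0.108% ± 0.0422 (SD, n = 4). The 4 shares sum to the whole, so they do not vary independently. Of the 12 differences in share, 11 had the groups fully apart (two-sided exact permutation test, p = 0.0286, the smallest that 70 assignments can give; adjusted p = 0.033 over 15 tests). The Igfbp4 share of mature hepatocytes against hepatoblasts was the exception, with a difference of -0.383 percentage points (exact permutation test, p = 0.886), which ran from -2.95 to 2.54 when single libraries were left out.

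**Figure D3:**
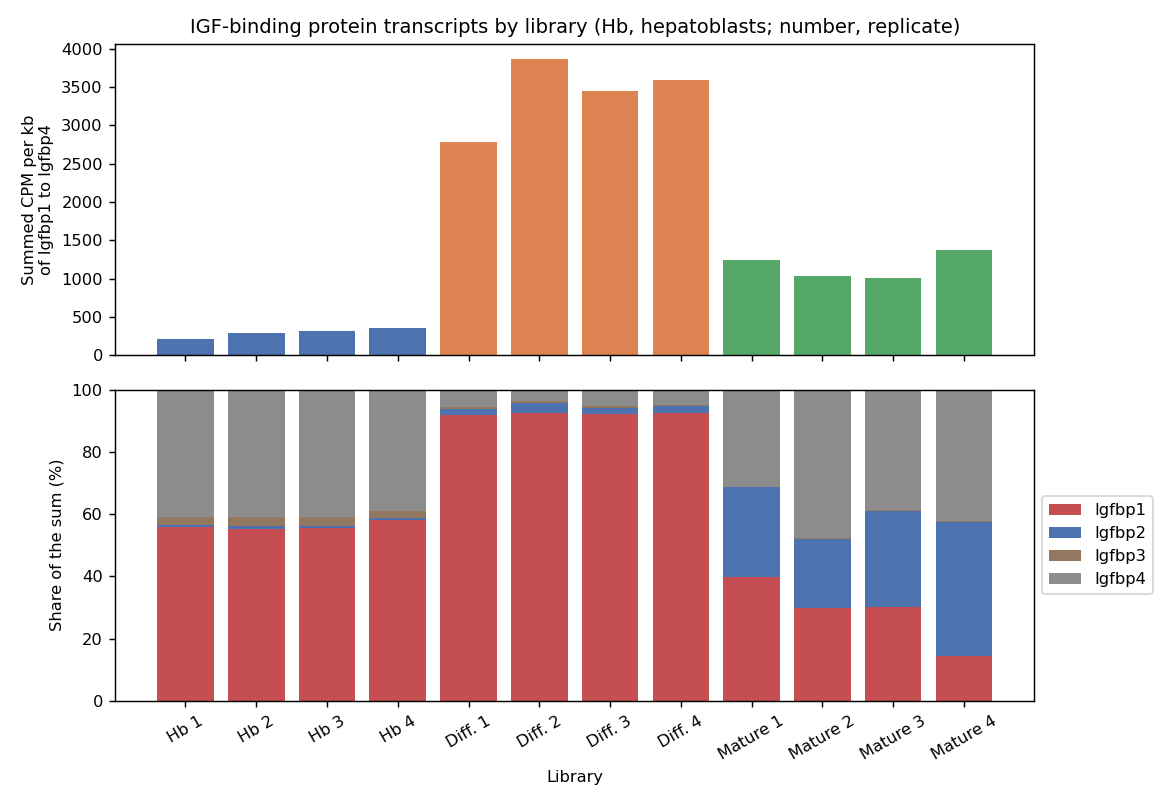
Summed level of Igfbp1 to Igfbp4 in CPM per kb of exon (upper bars, from 0) and the share of each gene in that sum in percent (lower bars) in each of the 12 libraries. Igfbp1 fills 91.8% to 92.5% of the sum in the 4 Diff. hepatocyte libraries, and Igfbp2 reaches 22.3% to 43.2% in mature hepatocytes alone.

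The receptors for IGF1 and insulin showed different patterns. Igf1r (ENSMUSG00000005533, chromosome 7 from 67952827 to 68233668, plus strand) was as high in culture as in hepatoblasts and low in the adult. It had 48.0, 21.1, 21.9 and 16.6 CPM in hepatoblasts. The Diff. hepatocytes had 47.2, 20, 21.3 and 17.1 CPM, nearly the same values. Mature hepatocytes had 3.91, 2.05, 2.22 and 2.36 CPM, and replicate 1 was the highest library in each group. The difference between the embryonic groups was -0.02 (SE 0.36, 95% interval -0.80 to 0.75, edgeR adjusted p = 0.959), and its sign rests on single libraries, with 0.42 without hepatoblasts replicate 1 and -0.46 without Diff. hepatocytes replicate 1. Mature hepatocytes were 10.2-fold below hepatoblasts (log2 -3.36, SE 0.43, edgeR adjusted p = 9.47e-06). Diff. hepatocytes were 10.1-fold above mature hepatocytes (log2 3.33, SE 0.43, edgeR adjusted p = 1.46e-05). Without replicate 1 of both embryonic groups, where the macrophage markers were highest, these were -2.93 and 2.91 and still called.

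Insr (ENSMUSG00000005534, chromosome 8 from 3122061 to 3279617, minus strand) was called in none of the 3 comparisons. Hepatoblasts had 126, 158, 162 and 188 CPM. Diff. hepatocytes had 206, 260, 234 and 250 CPM, all above the hepatoblasts. Mature hepatocytes had 251, 235, 245 and 289 CPM, overlapping the culture. The difference between culture and hepatoblasts was 0.58 (SE 0.12, 95% interval 0.32 to 0.85, edgeR adjusted p = 0.00113), under the fold threshold. Mature hepatocytes against hepatoblasts gave 0.68 (SE 0.12, 95% interval 0.42 to 0.95, edgeR adjusted p = 0.000214) under TMM but -0.16 under library totals. Culture against mature hepatocytes gave -0.10 (SE 0.12, 95% interval -0.37 to 0.16, edgeR adjusted p = 0.48), which became 0.43 under library totals.

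Per kilobase of exon, Insr exceeded Igf1r in each of the 12 libraries. The excess was 3.21-fold to 13.9-fold in the progenitors, 5.34-fold to 17.9-fold in culture and 78.4-fold to 150-fold in the adult. This ratio is taken within a library and does not depend on the scaling. The log2 ratio of Igf1r to Insr was -2.96 ± 0.90, -3.58 ± 0.79 and -6.93 ± 0.43 in this order (SD, n = 4). Culture and hepatoblasts overlapped in this ratio (difference -0.61; two-sided exact permutation test without pairing, p = 0.371, adjusted p = 0.398). It was -1.68, -3.2, -3.18 and -3.8 in hepatoblasts replicates 1 to 4 and -2.42, -3.99, -3.75 and -4.16 in culture, so replicate 1 was the highest of both groups and the culture was lower than the hepatoblasts of the same number in 4 of 4, by 0.36 to 0.79. Mature hepatocytes lay below both (differences of -3.97 from hepatoblasts and 3.35 for Diff. minus mature; exact permutation test, p = 0.0286 each, adjusted p = 0.033).

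**Figure D4:**
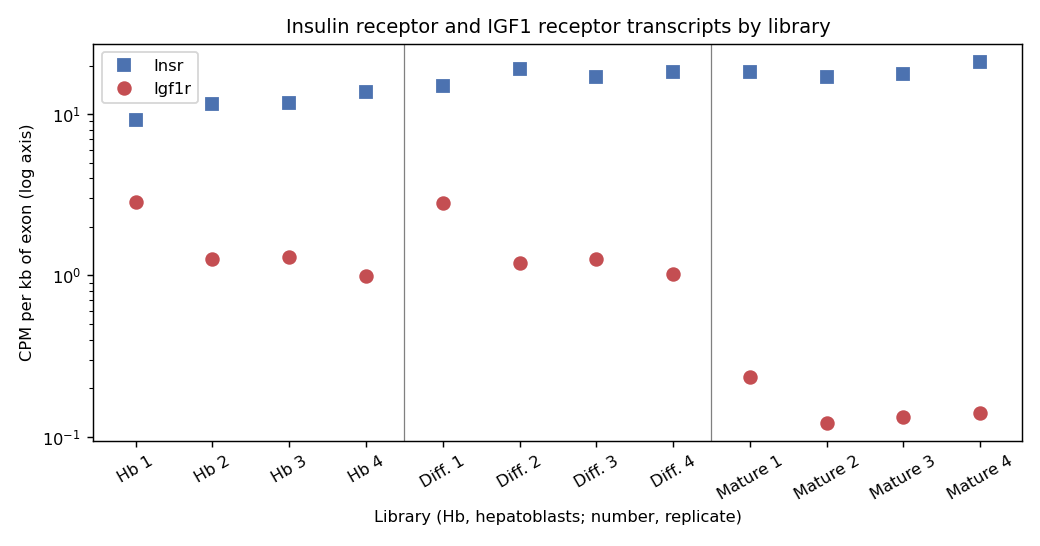
Insr (squares) and Igf1r (circles) in CPM per kb of exon, on a log axis, in each of the 12 libraries. Insr runs from 9.17 to 21.1 CPM per kb, and each culture and mature library lies above the hepatoblasts. Igf1r is about 10 times lower in the 4 mature libraries, and replicate 1 has the highest Igf1r of each group.

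Other genes of the axis were taken from a list of 34, of which 33 were tested and Igfbpl1, with at most 4 counts in a library, was not. In Diff. hepatocytes against hepatoblasts 8 were higher, 8 were lower and 17 were not called, beside 14.9% and 14% of all genes. In mature hepatocytes against hepatoblasts 8 were higher, 9 lower and 16 not called, beside 20.1% and 24.7% of all genes. This split depended on the scaling, with 4 higher and 14 lower under library totals and 5 and 12 under totals without the 50 most abundant genes. Against mature hepatocytes, Diff. hepatocytes had 9 higher, 7 lower and 17 not called, beside 20.2% and 15.6% of all genes, and 12 higher and 6 lower under either of those scalings. Their median log2 fold changes were -0.03, -0.09 and -0.29, beside -0.01, -0.15 and 0.09 for all genes. With genes at 0 in each mature library set to their bound, the second was 0.04, so its sign rests on the treatment of Pappa and Insrr.

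Among ligands and receptors, Igf2, the fetal growth factor, had 456, 657, 745 and 782 CPM in hepatoblasts. Cultured libraries had 154, 211, 230 and 207 CPM. The mature libraries had 0.823, 1.03, 1.11 and 0.931 CPM, so the groups stood fully apart. Igf2 was 3.29-fold lower in culture than in hepatoblasts (log2 -1.72, SE 0.16, edgeR adjusted p = 1.24e-06). It was 673-fold lower in mature hepatocytes than in hepatoblasts (log2 -9.39, SE 0.25, edgeR adjusted p = 4.27e-12). The opposite change of Igf1 and Igf2 between hepatoblasts and adult thus covered 116-fold up and 673-fold down, while both were lower in culture than in hepatoblasts. Igf2r, which removes IGF2 from the cell surface, lay at 957 to 1524 CPM in the progenitors, at 311 to 359 CPM in culture and at 103 to 141 CPM in the adult. Its decreases from hepatoblasts were 4.14-fold (log2 -2.05, edgeR adjusted p = 1.44e-07) and 11.6-fold (log2 -3.54, edgeR adjusted p = 5.6e-10). Prlr, the prolactin receptor and a relative of Ghr, was at 0.0493 to 0.232 CPM in the embryonic libraries and at 74.1 to 124 CPM in the mature ones (log2 9.08 for mature against hepatoblasts, SE 0.26, edgeR adjusted p = 8.28e-12). Unlike Ghr it was nearly silent in the progenitors, with 3 to 7 counts per library. Insrr, a receptor related to Insr, had 8.95, 3.31, 8.35 and 8.97 CPM in Diff. hepatocytes and 0 counts in each mature library, which makes the culture at least 39-fold higher, taking 3 counts per library as the floor.

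Proteases that cut binding proteins, and inhibitors of those proteases, were higher in culture than in hepatoblasts for 3 of 5 genes and lower for none, beside 14.9% of all genes higher. Pappa, a protease of Igfbp4, had 0.419 to 0.895 CPM in the progenitors and 14.8, 5.04, 10.2 and 7.94 CPM in culture (log2 3.85, SE 0.37, edgeR adjusted p = 8.91e-06). It had 0 counts in each mature library, so the culture was at least 50-fold higher. Stc2, which inhibits Pappa, lay at 0.537 to 2.04 CPM in the progenitors, at 38.8, 31.5, 37.2 and 63.3 CPM in culture and at no more than 0.0642 CPM in the adult. The increase in culture was 34.7-fold over hepatoblasts (log2 5.12, SE 0.35, edgeR adjusted p = 5.68e-08). Protease and inhibitor were therefore both higher in culture. Htra1, a secreted protease, had 11.3, 4.61, 6.57 and 3.11 CPM in culture and rose as well (log2 3.70, SE 0.49, edgeR adjusted p = 2.33e-05). Pappa2, a relative of Pappa, was not called in culture (0.239 to 0.53 CPM in the progenitors, 0.247 to 0.844 CPM in the cultured cells) and was lower in mature hepatocytes, at no more than 0.0642 CPM (edgeR adjusted p = 0.000467 against hepatoblasts and 0.000186 against culture). The related binding proteins Igfbp6 (log2 2.39, edgeR adjusted p = 0.000544) and Igfbp7 (log2 3.10, edgeR adjusted p = 1.12e-06) were higher in culture, against the decrease of Igfbp5. Igfbp6 had 18.8, 7.32, 11.5 and 9.17 CPM in culture and Igfbp7 had 87.6, 34.9, 51.3 and 34.7 CPM. Pappa, Htra1, Igfbp6 and Igfbp7 were thus each highest in culture replicate 1. Markers of other cells were highest in that library too. Acta2, a marker of activated mesenchymal cells, had 381, 139, 276 and 148 CPM in culture (log2 4.50 against hepatoblasts, edgeR adjusted p = 1.22e-07), and the bile duct marker Krt7 had 90.2, 20.6, 32.4 and 24.5 CPM (log2 4.74, edgeR adjusted p = 2.79e-06). Of the lists, 3 of 9 mesenchymal and 3 of 5 bile duct markers were called higher in culture than in hepatoblasts, beside 14.9% of all genes. The bile duct marker Sox9 (log2 0.01) and the mesenchymal marker Pdgfrb (log2 -0.45) were among those not called. Reln, of the mesenchymal list, was called lower (log2 -3.22, edgeR adjusted p = 1.72e-07), beside 14% of all genes. It fell from 589 to 973 CPM in hepatoblasts to 62.3 to 116 CPM in culture and so weighs on the mesenchymal sum. The sums were 1280 to 2967 against 1249 to 2257 CPM for mesenchymal and 70 to 213 against 12.9 to 15.1 CPM for bile duct markers, and none was at 0. Per the study's methods, a minority of Dlk1+ cells at E14.5 carried the bile duct marker Sox9. The part of mesenchymal or bile duct cells in the rise of these genes was not tested.

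Of 9 growth hormone signalling genes, 5 were lower and none higher in culture than in hepatoblasts, beside 14% of all genes lower and 14.9% higher. The feedback inhibitor Socs3, which cytokines of the interleukin 6 family also induce, had 185, 322, 313 and 281 CPM in hepatoblasts. In culture it was 12.3, 6.93, 8.57 and 7.49 CPM. The mature libraries had 108, 76.7, 73.1 and 186 CPM, between the other groups with 1 library just inside the hepatoblast range. Its decrease in culture was 31.2-fold (log2 -4.96, SE 0.34, edgeR adjusted p = 5.43e-08). Cish, another Stat5 target, had 11.8, 19.4, 18.2 and 15.6 CPM in the progenitors, 1.86, 1.08, 1.73 and 1.38 CPM in culture and 10.7, 30.6, 58.9 and 34.9 CPM in the adult. The culture was lower than hepatoblasts (log2 -3.42, SE 0.43, edgeR adjusted p = 1.48e-05) and mature hepatocytes (log2 -4.48, SE 0.44, edgeR adjusted p = 1.13e-06), as Socs2 was. Socs1 was lower in culture by a log2 change of -4.41 (SE 0.42, edgeR adjusted p = 1.11e-06). The transcription factors Stat5a (log2 -1.16, edgeR adjusted p = 2.26e-06) and Stat5b (log2 -1.03, edgeR adjusted p = 3.42e-05) passed the fold threshold narrowly, and neither passed glmTreat (adjusted p = 0.118 and 0.54). The kinase Jak2 was called in none of the 3 comparisons.

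**Figure D5:**
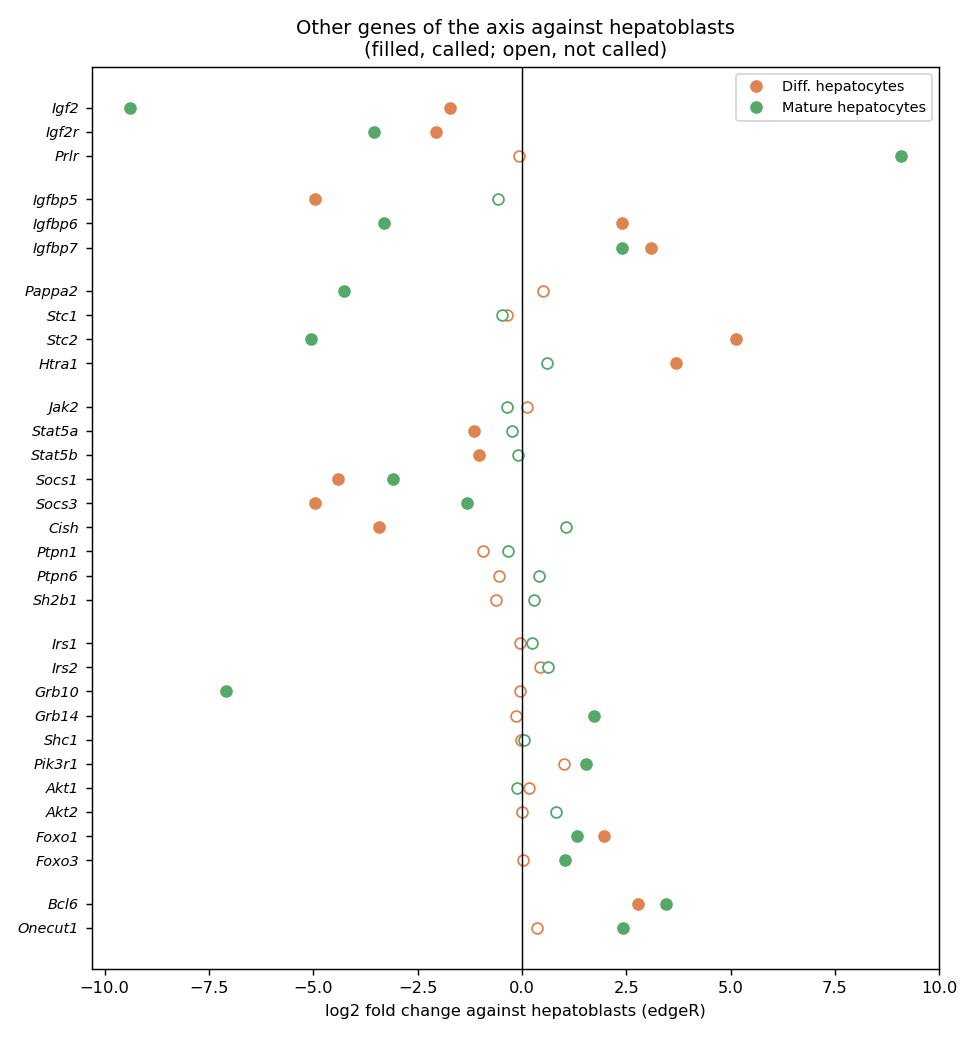
Log2 fold change from hepatoblasts of 31 other genes of the axis, for culture and for adult cells, filled where called, grouped by role from ligands (top) to transcription factors (bottom). Insrr and Pappa, at 0 in each mature library, are left out. Socs1, Socs3 and Cish lie far left of 0 in Diff. hepatocytes, and Igf2 and Grb10 in mature hepatocytes.

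Of 10 insulin and IGF signalling genes, 1 was higher and none lower in culture than in hepatoblasts, beside 14.9% and 14% of all genes. In mature hepatocytes 4 were higher and 1 lower than in hepatoblasts, beside 20.1% and 24.7% of all genes, and under library totals the 4 (Foxo1, Foxo3, Grb14 and Pik3r1) all fell short of the fold threshold. The factor Foxo1, which insulin inactivates, had 13.3, 17.3, 18.1 and 19.1 CPM in the progenitors, 54.6, 73.7, 66.8 and 67.7 CPM in culture and 35.6, 54.1, 32.7 and 45.3 CPM in the adult. It was 3.88-fold higher in culture (log2 1.96, SE 0.17, edgeR adjusted p = 3.9e-07). In mature hepatocytes it was 2.47-fold higher (log2 1.31, edgeR adjusted p = 8.17e-06), which library totals reduced to 0.47, under the threshold. Grb10, an adaptor that restrains both receptors, stayed at 1162 to 1803 CPM in the embryonic libraries and had 5.77 to 17.6 CPM in mature hepatocytes (log2 -7.10 against hepatoblasts, SE 0.37, edgeR adjusted p = 1.67e-09). Grb14, an inhibitor of the insulin receptor, was higher in mature hepatocytes (log2 1.72, SE 0.13, edgeR adjusted p = 3.88e-08; 0.88 and not called under library totals). Pik3r1, the regulatory subunit of phosphoinositide 3-kinase, lay at 46 to 61.4 CPM in the progenitors, 95.5 to 121 CPM in culture and 110 to 175 CPM in the adult (log2 1.54 for mature against hepatoblasts, SE 0.14, edgeR adjusted p = 4.98e-07; 0.68 under library totals). Foxo3, a relative of Foxo1, barely passed in mature hepatocytes (log2 1.03, SE 0.22, edgeR adjusted p = 0.000955; 0.14 under library totals), a call lost without hepatoblasts replicate 2 (0.94), 3 (0.89) or 4 (0.90) or mature replicate 2 (0.99) or 4 (0.93). Irs1, Irs2, Shc1, Akt1 and Akt2 were called in none of the 3 comparisons.

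Both transcription factors listed as responsive to growth hormone were higher in mature hepatocytes than in hepatoblasts, beside 20.1% of all genes. Bcl6, a repressor, had 3.39, 4.12, 4.44 and 4.21 CPM in the progenitors. Cultured cells had 23.7, 31.3, 25.8 and 29.3 CPM, and the adult 72.6, 20.9, 34.8 and 50.2 CPM, overlapping the culture. It was higher in culture (log2 2.77, SE 0.30, edgeR adjusted p = 4.06e-06) and in mature hepatocytes (log2 3.46, SE 0.31, edgeR adjusted p = 2.66e-07) than in hepatoblasts. Onecut1, a hepatocyte transcription factor, lay at 9.51 to 17.8 CPM in the progenitors, 17.1 to 19.7 CPM in culture and 37.9 to 114 CPM in the adult. It was higher in mature hepatocytes than in hepatoblasts (log2 2.42, SE 0.32, edgeR adjusted p = 1.24e-05), lower in culture than in mature hepatocytes (log2 -2.05, edgeR adjusted p = 6.8e-05) and not called between culture and progenitors (log2 0.36, edgeR adjusted p = 0.328).

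Genes that these hormones are known to control were read from 3 further lists. The male-biased genes that adult growth hormone pulses maintain were higher in mature hepatocytes than in hepatoblasts for 7 of 7, beside 20.1% of all genes. The mature cells all came from males, and age, sex selection and isolation cannot be told apart here. Mup20, a major urinary protein, went from 0.597 to 0.866 CPM in the progenitors and 3.6 to 5.98 CPM in culture to 2799 to 3643 CPM in the adult. In culture 3 of the 7 were higher than in hepatoblasts, beside 14.9% of all genes. These were Slco1a1 (log2 4.52, edgeR adjusted p = 3.72e-08), Cyp2d9 (log2 3.84, edgeR adjusted p = 3.99e-09) and Mup20 (log2 2.54, edgeR adjusted p = 1.61e-07). All 7 were lower in culture than in mature hepatocytes, beside 15.6% of all genes. Elovl3 and Cyp4a12a were at 3 counts or fewer in each hepatoblast library and at 77.7 to 692 and 270 to 415 CPM in mature hepatocytes. Cyp7b1 and Hsd3b5 were not called between culture and hepatoblasts and had 373 to 825 and 259 to 449 CPM in mature hepatocytes, with at most 0.865 and 0.597 CPM in an embryonic library. Of 5 female-biased genes only Cux2 and Cyp2b9 were tested. Cyp2b9, with at most 11 counts in a library, was called in none of the 3 comparisons. Cux2 was lower than in hepatoblasts both in culture (log2 -3.49, edgeR adjusted p = 1.68e-07) and in mature hepatocytes (log2 -5.02, edgeR adjusted p = 7.95e-09). It was higher in culture than in mature hepatocytes (log2 1.53, edgeR adjusted p = 0.0011), a call lost under glmTreat (adjusted p = 0.0644). The 3 genes that insulin represses, as it does Igfbp1, were all higher in culture than in hepatoblasts, beside 14.9% of all genes. The culture medium held both insulin and dexamethasone, and the part of either in these levels was not tested. G6pc lay at 0.677 to 1.13 CPM in the progenitors, at 127 to 192 CPM in culture and at 840 to 1639 CPM in the adult (log2 7.5 in culture against hepatoblasts, edgeR adjusted p = 4.42e-10). Pck1 rose 26.2-fold in culture (log2 4.71, edgeR adjusted p = 1.39e-09) and Pdk4 6.64-fold (log2 2.73, edgeR adjusted p = 9.05e-05). Pdk4, like Igfbp1 and unlike G6pc and Pck1, was higher in culture than in mature hepatocytes (log2 3.16, edgeR adjusted p = 2.73e-05).

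The genes most like 6 of the members across the 12 libraries were found by Pearson's r of log2 CPM among 8697 genes with a mean of at least 10 CPM, as a description without a test, since the points fall into 3 groups that fix most of r. Closest to Ghr was Ppp1r37 (r = 0.9979), closest to Igf1 was the complement gene C6 (r = 0.9950) followed by C9 (r = 0.9921), and closest to Igf1r was Iqgap1 (r = 0.9885). Igfbp1 was most like Phf21a (r = 0.9911) and Ip6k2 (r = 0.9894), Igfbp2 most like Adk (r = 0.9965), and Socs2 most like Gm2788 (r = 0.9849) and Akr1c6 (r = 0.9843). C6, a secreted complement protein, had means of 0.722, 0.0885 and 489 CPM in progenitors, culture and adult, with the same order of groups as Igf1. Ip6k2, an inositol phosphate kinase, had means of 29.5, 209 and 36.7 CPM, with its peak in culture as Igfbp1 has.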

How the data were processed

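Total RNA was enriched for poly(A), made into strand-specific libraries and read as 75-base single reads. Per the labels and the study's methods, the authors checked reads with FastQC 0.11.2, mapped and counted them with STAR 2.5.2b on GRCm38 and Ensembl release 92, assessed duplicates with Picard 2.10.2 and tested with DESeq2 1.22.2. The deposited table holds raw counts, unnormalized whole numbers. Which strand column was used, and whether duplicates were removed, is not given in the sources used here, so overlapping genes on opposite strands may share reads.

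The tools were edgeR 4.0.16 and DESeq2 1.42.0 under R 4.3.3. A gene was tested if at least 1 library had over 10 counts of it (17779 genes, holding at least 99.92% of each library's counts). After TMM scaling (factors 0.677 to 1.44), a quasi-likelihood model in edgeR was fitted to all 12 libraries with no term but group, with Benjamini-Hochberg adjustment over all tested genes. Library totals were 21523329 to 25216977 in hepatoblasts, 19581551 to 22026087 in Diff. hepatocytes and 20043218 to 23791477 in mature hepatocytes. Replicates differed by more than counting error (chi-square per gene 5.52 to 84.8), so errors are between replicates. The edgeR steps were also run on simulated counts with a fixed spread and balanced changes. These held no built-in shift in scaling and no outlying library, so they do not speak to either. Shares and the receptor ratio used exon lengths from GENCODE M21, which holds Ensembl release 96, and exact permutation tests. A group at 0 was set to 3 counts per library.

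The 10 genes, the other lists, the marker lists and the tests were chosen with earlier results of these data known. All 10 are described; from each further list the called genes with the largest change, up to 4 per comparison, direct partners of the 10 genes, Igf2 and Igf2r are named, and genes called in no comparison are given by name only where their role is central. Marker lists of endothelial and bile duct cells were summed too, giving 104 to 203, 53.4 to 107 and 181 to 346 CPM, and 12.9 to 15.1, 70 to 213 and 15.4 to 40.7 CPM, in hepatoblasts, Diff. hepatocytes and mature hepatocytes. Alternatives were DESeq2's Wald test and size factors, glmTreat, an adjusted p under 0.05 alone, plain library totals, totals less the 50 most abundant genes, other count filters, 8-library fits, a replicate block and leaving out each library. Leaving out replicate 1 of both embryonic groups and a replicate block for the receptor ratio were alternatives chosen after seeing the data. A search for protein motifs was not run.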

Additional observations from a re-analysis of the deposited data

Results flagged for a closer look

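Within groups of 4 libraries, 15 of 134 sets of values checked had a highest or lowest library farther from the rest than Dixon's 95% limit, where chance alone gives about 1 in 20, or 6.7. Igf1r was set apart by replicate 1 in all 3 groups, at 48 CPM in hepatoblasts (others 16.6 to 21.9), 47.2 CPM in Diff. hepatocytes (others 17.1 to 21.3) and 3.91 CPM in mature hepatocytes (others 2.05 to 2.36). The log2 ratio of Igf1r to Insr in mature replicate 1 was -6.29 (others -7.23 to -7.07). Hepatoblasts replicate 1 was also high in Jak2 at 42.8 CPM (others 20 to 22.4) and Foxo3 at 79.3 CPM (others 35.3 to 41.3), and low in Igf2r at 957 CPM (others 1503 to 1524) and Grb10 at 1162 CPM (others 1785 to 1803). Mature replicate 1 was low in Pik3r1 at 110 CPM (others 167 to 175), and mature replicate 2 low in Shc1 at 82.4 CPM (others 93.4 to 95.1).

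In the culture, replicate 2 was low in Insrr at 3.31 CPM (others 8.35 to 8.97) and high in the Igfbp2 share at 3.41% (others 1.97% to 2.16%), and replicate 3 was high in Akt2 at 58.8 CPM (others 55.7 to 56.1). In hepatoblasts, replicate 3 was high in Htra1 at 0.777 CPM (others 0.365 to 0.419), and replicate 4 was low in the Igfbp4 share at 39.1% (others 40.8% to 41.1%).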

How the results depend on the processing

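For the 10 genes under other settings, 668 values kept their direction and call, 9 were newly called, 6 lost their call and 7 changed sign. Among the 9 were values of Insr, Igfbp4 and Igfbp1 under an adjusted p of 0.05 alone, where no fold threshold applied. With the fold threshold in the test (glmTreat), called genes in Diff. hepatocytes against hepatoblasts fell from 6 to 3, since Igf1, Igfbp3 and Socs2 were lost, and all called genes from 5145 to 2966 there and from 6362 to 4221 in Diff. against mature hepatocytes. With an adjusted p under 0.05 alone, 10615, 12870 and 11580 genes were called in place of 5145, 7971 and 6362, and 28 genes of the wider axis in place of 16 in Diff. against mature hepatocytes. Signs reversed for Insr, to -0.16 in mature hepatocytes against hepatoblasts and 0.43 in Diff. against mature hepatocytes under library totals, and 0.46 in the latter without the 50 most abundant genes. For Igf1r in Diff. hepatocytes against hepatoblasts leaving out single libraries gave -0.46 to 0.42, with 0.42 without hepatoblasts replicate 1 and 0.07, 0.07 and 0.14 without culture replicates 2, 3 and 4. The Igfbp4 share of mature hepatocytes against hepatoblasts ran from -2.95 to 2.54 points, with 2.54 without mature replicate 1 and 0.0145 without mature replicate 3; the cause was not tested. Stat5b in culture fell just short of the fold threshold without hepatoblasts replicate 4. Deviations from the group means of hepatoblasts and Diff. hepatocytes of the same number correlated over genes at 0.324, -0.0589, 0.246 and 0.184, with 3 of 4 over 0.1, and those with mature hepatocytes at -0.0813 to 0.0923. Hepatoblasts 1 and 3 were closest to the culture of their own number, 2 and 4 were not. Not every pair passed 0.1, so the numbers were not taken as pairing the samples. A replicate block left 6, 8 and 9 of the 10 genes called, as without it. For the ratio of Igf1r to Insr in culture against hepatoblasts, a block added after seeing the data gave the same difference of -0.61 (two-sided exact test over 16 sign assignments, p = 0.125, the smallest that 4 pairs can give). Depth limits Socs2 in culture (9 to 27 counts) and Prlr in the embryonic libraries (1 to 7 counts).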
